A study of Mus musculus with 16 samples.

Results

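The respiratory chain genes described here were the protein-coding genes whose symbols begin with Nduf, Uqcr, Atp5, Cox4, Cox5, Cox6, Cox7 or Cox8, the genes Sdha to Sdhd, and the mitochondrial mRNAs mt-Nd, mt-Co, mt-Cytb and mt-Atp. The annotation held 107 of them, and 106 of the 19449 genes in the deposited table matched, 93 encoded in the nucleus and 13 in the mitochondrial genome (Cox8c was not analysed here). The rule used gene symbols only, but it was chosen with earlier results of these data known. Complex I had 51 of these genes (36 nuclear subunits, 8 assembly factors named Ndufaf1 to Ndufaf8, and 7 mitochondrial genes), complex II 4, complex III 9, complex IV 22 and complex V 20. The nuclear members lay on 19 chromosomes.

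Respiratory complexes I and II take electrons from NADH and succinate, complex III passes them from ubiquinol to cytochrome c, and complex IV hands them to oxygen. Complexes I, III and IV pump protons across the inner membrane, and complex V, the ATP synthase, uses their return to make ATP. All complexes except II are built from nuclear subunits made in the cytosol together with a few hydrophobic core subunits made inside the organelle, so 2 genomes must supply 1 machine, and neurons depend heavily on it for synaptic transmission.

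The RNA came from whole hippocampus of mice of 3 months, in 16 libraries of 4 groups with 4 libraries each. The groups were wild type injected with PBS (the vehicle), wild type injected with LPS (lipopolysaccharide, from the outer wall of bacteria, which provokes inflammation), TSPOKO injected with PBS, and TSPOKO injected with LPS. TSPOKO mice, called knockout below, lack Tspo, the gene of the translocator protein of the outer mitochondrial membrane. The construction of the knockout, the dose, route and time of LPS, and the sex of the mice are not stated in the sources used, and no source says that replicates are separate animals, so p-values measure the spread between these libraries.

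Library totals ran from 30198619 to 50009041 counts. On a scale of log2 CPM (counts scaled to library size) relative to the wild-type PBS mean, Tspo stood between -3.48 and -2.44 in knockout LPS. In knockout PBS it stood between -3.84 and -2.49 in 3 libraries and at -0.31 in the library labelled knockout PBS replicate 1, which goes against its label. Among wild-type LPS libraries, 6 inflammatory genes averaged 5.087 to 5.196 above wild-type PBS in replicates 2, 3 and 4 but 0.77 in replicate 1, and in all 4 knockout LPS libraries it lay between -0.39 and -0.08. Choroid plexus markers were at -4.32 in wild-type PBS replicate 1 and -4.13 in wild-type LPS replicate 1, and cerebellar markers at 6.34 in knockout PBS replicate 2. Thalamic markers ranged from -1.186 to 1.032 in wild-type PBS and from -1.757 to -0.793 in wild-type LPS. They ranged from -1.662 to 0.118 in knockout PBS and from -0.635 to 0.517 in knockout LPS. All 8 neuron markers and all 6 hippocampal markers passed the expression filter. Codes of unstated meaning in the titles were shared by wild-type LPS replicates 2 to 4 and knockout PBS replicate 4, by wild-type PBS replicates 1 to 3, by wild-type PBS replicate 4 and wild-type LPS replicate 1, and by knockout LPS replicates 1 and 2, so codes and groups are largely confounded and cannot be told apart. In whole tissue, fewer cells of a type and less RNA per cell cannot be told apart either.

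The 2 genomes differ in how their messages are laid out, and this bears on how well each gene can be counted. Mitochondrial mRNAs are cut from long transcripts and some share bases with their neighbour. The end of mt-Atp8 and the start of mt-Atp6, both complex V subunits, overlap by 43 bases, and the end of mt-Nd4l and the start of mt-Nd4, both complex I subunits, by 7 bases. They are shown on the mitochondrial plus strand of GRCm38 with the overlap in capitals, chrMT:7897-7999 first and chrMT:10137-10203 after it.
mt-Atp8 to mt-Atp6: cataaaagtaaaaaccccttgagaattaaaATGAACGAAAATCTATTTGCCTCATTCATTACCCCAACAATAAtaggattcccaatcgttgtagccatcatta
mt-Nd4l to mt-Nd4: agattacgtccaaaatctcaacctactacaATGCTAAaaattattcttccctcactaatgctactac

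A stretch of nuclear chromosome 1 (chr1:24611535-24616197, minus strand, GRCm38) holds near-identical copies of 7 stretches of the mitochondrial genome, each listed in the table as a gene of its own. Of 9 such copies in the table, 5 had no mismatch to the mitochondrial gene over their aligned length. The first 60 bases of mt-Co2, a core subunit of complex IV (chrMT:7013-7072, plus strand), and of its copy Gm28661 (chr1:24615506-24615565, minus strand) were the same in every base. The first 33 bases of mt-Nd3 (chrMT:9459-9491, plus strand) and of its copy Gm28438 (chr1:24613087-24613119, minus strand) are shown because the single mismatch, T3C, is among them. It is in capitals, with positions counted from 1 at the first base of mt-Nd3 and the mitochondrial base given first.
mt-Co2: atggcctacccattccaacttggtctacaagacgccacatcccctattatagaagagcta
Gm28661: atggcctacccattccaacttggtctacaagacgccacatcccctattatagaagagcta
mt-Nd3: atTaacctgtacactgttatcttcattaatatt
Gm28438: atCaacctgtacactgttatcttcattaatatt

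The counts were divided between such pairs in proportions that differed between libraries. Gm28661 held between 27.6% and 57.6% of the counts of the mt-Co2 pair (median 51.2%), with the lowest share in wild-type LPS replicate 3. Gm28438 held 33.7% to 51.4% of the mt-Nd3 pair, Gm10925 10.1% to 32.0% of the mt-Atp6 pair, and Gm28437 0.69% to 23.96% of the mt-Co3 pair. Single values of mt-Co2, mt-Nd3, mt-Atp6 and mt-Co3 are therefore uncertain, and their log2 fold changes under LPS are also given with the counts of each copy added to its gene. Of the 31-base words of mt-Co2, 100% also occur in another gene of the table, against 0% for mt-Nd1, mt-Nd2, mt-Nd5, mt-Nd6 and mt-Cytb. The strand setting of the libraries is not stated in the sources used, so reads from mt-Nd6, the only one of the 13 on the minus strand, and reads from the opposite strand cannot be told apart.

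For the nuclear members the shared control element looked for was a promoter motif. RefSeq promoters (GRCm38.p6, 250 bases before to 50 after the start) were matched by symbol for 74 of 92 nuclear symbols. The core of the site of NRF1, a regulator of nuclear genes for mitochondria, was found on either strand in 18 of the 74 (24.3%) and in 1131 of all 16522 promoters (6.85%). The site of YY1 was in 5 of 74 (6.76%) against 1.34%. CCGGAAGT, a GABPA site, was in 5 (6.76%) against 5.52%, and TGACGTCA, a CREB site, in 4 (5.41%) against 2.43%. No member promoter held matches of different motifs that overlap. A match describes letters only.

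Of the 7 genes that fell in wild type under LPS (described below), 6 had a promoter in the table. None of the 6 held the NRF1, GABPA or YY1 motif and 1, Ndufb2, held the CREB motif. The NRF1 motif was absent from most member promoters (18 of 74 held it), so its absence from these 6 is not particular to them. The 120 bases nearest upstream are shown for 4 of the 6 beside Sdha and Ndufb4, which did not pass in any comparison. Those 2 hold the most NRF1 matches in that stretch (3 and 2) and are not typical members. Capitals mark a motif match. In order, the stretches are chr3:51408956-51409075 (minus strand), chr6:39592445-39592564 (plus), chr9:57521112-57521231 (plus), chr11:96075632-96075751 (minus), chr13:74350241-74350360 (minus) and chr16:37654369-37654488 (minus).
Ndufc1: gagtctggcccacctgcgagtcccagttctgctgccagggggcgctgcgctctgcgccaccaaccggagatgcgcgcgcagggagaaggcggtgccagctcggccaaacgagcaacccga
Ndufb2: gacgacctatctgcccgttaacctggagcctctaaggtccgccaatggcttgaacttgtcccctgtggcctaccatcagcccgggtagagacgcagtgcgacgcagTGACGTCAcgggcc
Cox5a: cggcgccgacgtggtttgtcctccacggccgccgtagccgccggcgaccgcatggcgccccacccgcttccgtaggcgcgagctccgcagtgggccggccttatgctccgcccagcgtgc
Atp5g1: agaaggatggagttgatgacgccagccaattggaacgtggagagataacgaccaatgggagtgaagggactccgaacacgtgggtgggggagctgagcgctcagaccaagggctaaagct
Sdha: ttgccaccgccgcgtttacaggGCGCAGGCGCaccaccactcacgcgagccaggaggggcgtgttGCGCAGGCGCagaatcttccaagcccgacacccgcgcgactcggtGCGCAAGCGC
Ndufb4: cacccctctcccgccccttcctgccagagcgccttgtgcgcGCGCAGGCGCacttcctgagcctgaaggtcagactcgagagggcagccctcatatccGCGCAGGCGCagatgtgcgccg

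The mitochondrial mRNAs stood far above the nuclear ones in level. Levels between genes are given as counts per kilobase of exon, scaled to library depth (TPM-like), as means over the 16 libraries with the SD. The median level was 15084 for the 13 mitochondrial genes and 164 for the 76 nuclear subunits. These levels leave out the nuclear copies, which held a median of 51.2% of the counts of the mt-Co2 pair. The median was 42.4% for the mt-Nd3 pair, 17.8% for the mt-Atp6 pair and 8.43% for the mt-Co3 pair. The places of these genes in the order below, that of mt-Co2 above all, are therefore uncertain. As counted, mt-Co1, the catalytic core of complex IV, was highest at 38619 ± 1604, followed by mt-Atp6 at 25286 ± 2141 and mt-Co3 at 20792 ± 1445. Then came mt-Cytb (18051 ± 1258), mt-Nd1 (17150 ± 1204), mt-Co2 (16307 ± 1942), mt-Nd4 (15084 ± 1010) and mt-Nd4l (14997 ± 1891), each within the spread over libraries of the next. mt-Nd2 stood at 11224 ± 1282 and mt-Nd3 at 2698 ± 312. Between them, mt-Atp8 (7000 ± 1869) and mt-Nd5 (6821 ± 613) differed by less than their spread. mt-Nd6 was the lowest of the 13 at 1167 ± 269 and the single one below a nuclear gene, Cox8a.

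Among the nuclear subunits the median level per length was 331 for complex IV, 237 for complex III, 158 for complex V, 141 for complex II and 134 for complex I. The highest in each complex were Cox8a of complex IV (1329 ± 64.9), Atp5a1 of complex V (816 ± 33.4), Uqcr10 of complex III (386 ± 27.9), Ndufb9 of complex I (328 ± 17.7) and Sdha, the flavoprotein of complex II (313.9 ± 15.98). Atp5a1 and Atp5b (803 ± 33.3), the alpha and beta subunits of the catalytic head, did not differ beyond their spread. The 8 complex I assembly factors had a median of 32.3. Subunits that fell under LPS included low ones, with Ndufb2 (26.0), Ndufab1 (29.4) and Ndufc1 (44.4) near the bottom of complex I, and Cox5a, at 133.5, the lowest nuclear subunit of complex IV.

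**Figure D1:**
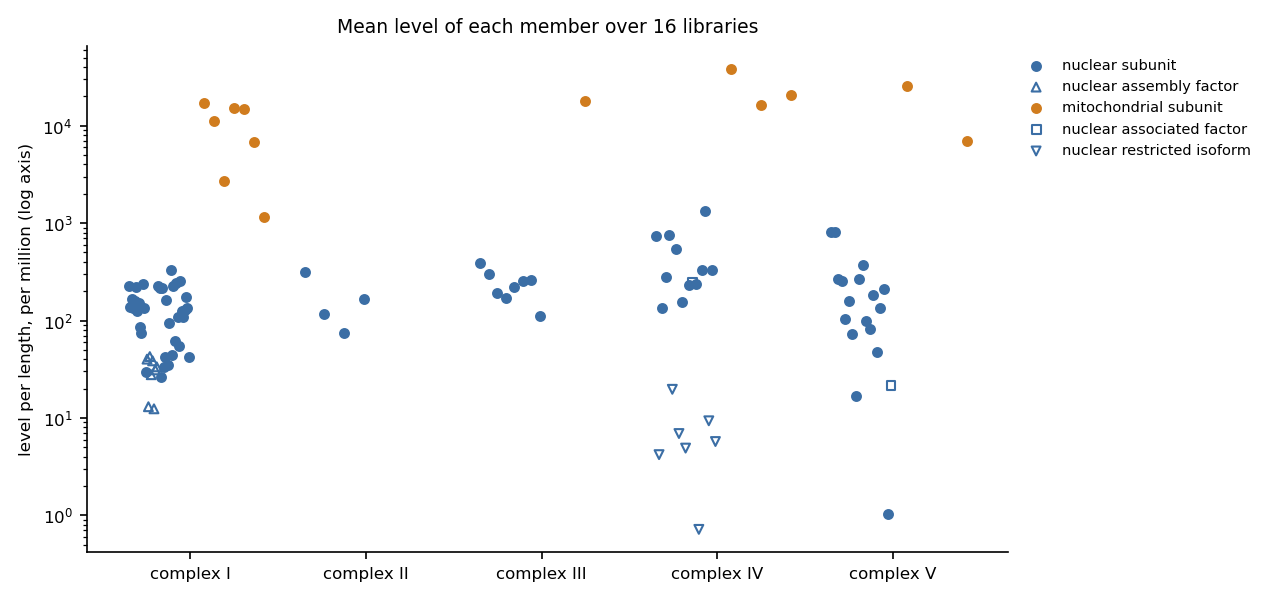
Level per length of each respiratory chain gene (scaled counts per kilobase of exon, log axis), by complex, with nuclear and mitochondrial genes apart. The mitochondrial genes lie between 1167 and 38619, and the nuclear subunits between 1.03 (a second identifier of Atp5o) and 1329. Open symbols are assembly factors, associated factors and restricted isoforms.

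Complex IV has subunits with a second form used in muscle, testis or low oxygen, and these were scarce in hippocampus. As a percent of the level of the common form, Cox4i2 was at 0.564% of Cox4i1, Cox8b at 0.694% of Cox8a, Cox6b2 at 1.27% of Cox6b1, Ndufa4l2 at 1.72% of Ndufa4, Cox7a1 at 2.13% of Cox7a2, and Cox6a2 at 2.63% of Cox6a1. Cox7b2 held 0 to 9 counts per library and was not tested. The c subunit that forms the rotor of complex V is made from 3 genes with the same mature product. Atp5g3 gave 74.5% of their summed level per length, Atp5g1 20.7% (18.3% to 22.6% over the libraries) and Atp5g2 4.74%. With the longest transcript as the length these shares were 85.4%, 9.79% and 4.77%, so that of Atp5g1 depends on the length used. Atp5g2 shares 37.5% of its 31-base words with 1 other gene in the table, Gm10175, and is uncertain.

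Within groups, nuclear subunits varied little between replicates. The median SD of log2 CPM was 0.081 for the 75 nuclear subunits tested, 0.153 for the 13 mitochondrial genes and 0.106 for all 6304 genes with a mean log2 CPM above 5. mt-Co1 was the steadiest mitochondrial gene (0.079), and mt-Atp8 (0.393), mt-Nd6 (0.302) and mt-Nd4l (0.23) were the least steady. A given difference is thus harder to detect for the mitochondrial genes.

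LPS in wild type was compared with PBS to ask how inflammation touches the chain. Nuclear genes of complexes I, IV and V fell, each by a small amount, and none of the mitochondrial mRNAs passed the test. Of the 104 members tested, 7 fell and 0 rose (edgeR's quasi-likelihood test, Benjamini-Hochberg adjusted p below 0.05 over 16269 genes). They were Ndufc1, Ndufb2 and Ndufab1 of complex I, Cox5a of complex IV, and Atp5g1, Atp5j2 and Atp5s of complex V. Those 7 are 6.73% of the members, while 3.85% of all genes fell and 4.72% rose (8.57% in all). In 15 members (14.4%) every LPS library lay below every PBS library, against 4.41% of all genes, and in 1, Ndufb9, every one lay above, against 4.22% of all genes.

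Ndufc1 (ENSMUSG00000037152, chr3:51404677-51408988, minus strand) encodes a small accessory subunit of the membrane arm of complex I. In order of replicate, it stood at 18.7, 23.3, 18.7 and 19.1 CPM in wild-type PBS and at 16.4, 15.3, 14.6 and 15.3 CPM in wild-type LPS. Knockout PBS held 19.98, 18.6, 18.8 and 19.6 CPM, and knockout LPS 18.7, 17.9, 18.6 and 18.1 CPM. The wild-type LPS libraries were the lowest 4 of the 16 and overlapped with no other group. The log2 fold change in wild type was -0.37 with an SE of 0.07, the error given after each log2 fold change below (adjusted p = 0.00659).

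Ndufb2 (ENSMUSG00000002416, chr6:39592574-39603382, plus strand), an accessory subunit of the far end of that arm, stood at 42.1, 44.0, 43.6 and 40.2 CPM in wild-type PBS and 40.2, 30.2, 30.5 and 33.2 CPM in wild-type LPS. Knockout PBS libraries held 47.4, 41.9, 44.0 and 38.4 CPM, and knockout LPS libraries 40.5, 42.2, 40.1 and 45.6 CPM. Wild-type LPS replicates 2, 3 and 4 were low, while replicate 1 stood level with PBS replicate 4, so the groups overlapped. The log2 fold change in wild type was -0.34 ± 0.09 (adjusted p = 0.0254).

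Ndufab1 (ENSMUSG00000030869, chr7:122085403-122101886, minus strand), the mitochondrial acyl carrier protein, is both a complex I subunit and a carrier in fatty acid synthesis. It stood at 57.0, 57.8, 58.5 and 57.7 CPM in wild-type PBS and 54.2, 48.9, 49.0 and 53.1 CPM in wild-type LPS. The knockout libraries ranged from 56.0 to 59.0 CPM under PBS and from 55.2 to 56.7 CPM under LPS. All wild-type LPS libraries lay below all others, and the log2 fold change was -0.17 ± 0.04 (adjusted p = 0.0203).

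Cox5a (ENSMUSG00000000088, chr9:57521274-57532426, plus strand), a matrix-facing subunit that joins mt-Co1 early in the assembly of complex IV, stood at 80.4, 86.0, 82.0 and 76.6 CPM in wild-type PBS and 76.8, 64.8, 65.3 and 65.9 CPM in wild-type LPS. Replicate 1 again stayed with the PBS libraries, and the other 3 lay below them. The knockout libraries ranged from 73.7 to 86.6 CPM under PBS and from 76.5 to 85.8 CPM under LPS. The log2 fold change in wild type was -0.25 ± 0.07 (adjusted p = 0.0282).

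In complex V, Atp5g1 (ENSMUSG00000006057, chr11:96068852-96075670, minus strand), a source of the c subunit of the rotor, stood at 102.7, 106.1, 100.8 and 105.6 CPM in wild-type PBS and 90.5, 90.8, 85.0 and 88.9 CPM in wild-type LPS. The knockout libraries held 110.7, 99.7, 104.9 and 107.7 CPM under PBS and 101.7, 93.4, 102.3 and 97.8 CPM under LPS. The wild-type LPS libraries, replicate 1 included, lay below all others. The log2 fold change was -0.23 ± 0.04 (adjusted p = 0.00795). Atp5g3, the main source of the same subunit, was at -0.05 ± 0.05 (adjusted p = 0.593), and Atp5g2 at 0.22 ± 0.17 (adjusted p = 0.487).

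Atp5j2 (ENSMUSG00000038690, chr5:145183698-145192062, minus strand), the f subunit of the membrane part, stood at 78.2, 82.6, 79.1 and 78.2 CPM in wild-type PBS and 76.7, 62.7, 66.2 and 66.5 CPM in wild-type LPS, with no overlap (log2 fold change -0.23 ± 0.07, adjusted p = 0.045). Knockout PBS libraries spread from 72.5 to 86.5 CPM and overlapped with both wild-type groups. Knockout LPS libraries, from 69.2 to 75.3 CPM, overlapped with wild-type LPS and lay below wild-type PBS. Atp5s (ENSMUSG00000054894, chr12:69724950-69744660, plus strand), known as factor B, is associated with the synthase rather than built into its core. It stood at 12.1, 12.6, 12.4 and 11.2 CPM in wild-type PBS and 10.96, 10.04, 10.3 and 10.3 CPM in wild-type LPS (-0.22 ± 0.06, adjusted p = 0.0391), again with no overlap.

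**Figure D2:**
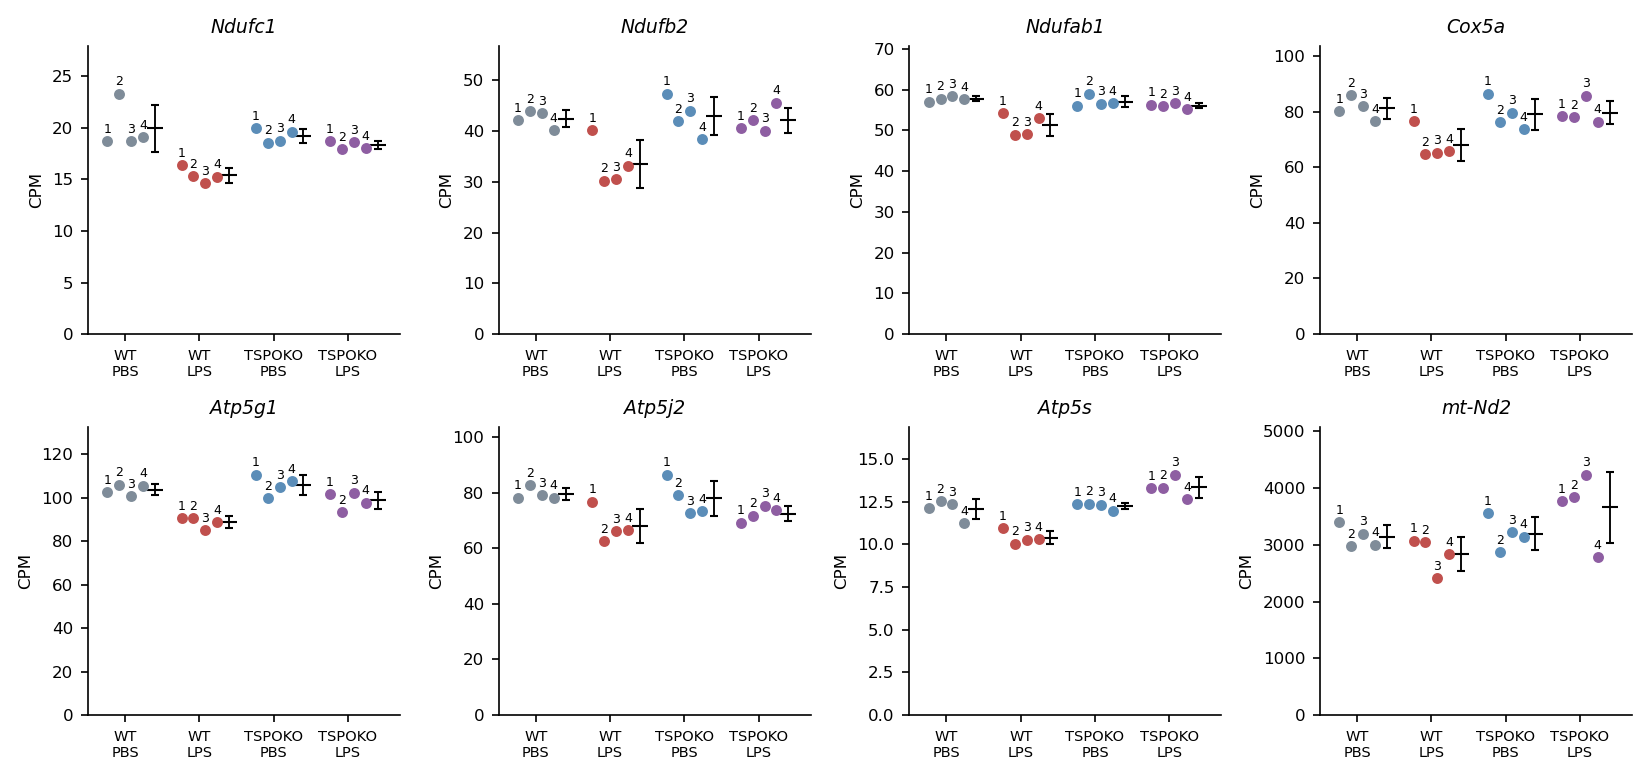
CPM in each of the 16 libraries (points, numbered by replicate, with the mean and SD of each group) for the 7 nuclear genes that passed in wild type and for mt-Nd2. Ndufc1 in wild-type LPS lies between 14.6 and 16.4, below all 12 other libraries.

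Between complexes, the nuclear subunits differed little in their median log2 fold change in wild type. It was -0.094 in complex I (30 of 36 below 0), -0.056 in complex II, -0.119 in complex III, -0.09 in complex IV (11 of 11 below 0) and -0.111 in complex V. Over the 75 nuclear subunits the median was -0.1, with 65 below 0, 10 above 0 and 6 that passed, while over all genes the median was 0.002 and 49.4% were below 0. No member of complex II or III passed. Their smallest p-values belonged to Sdhc, a membrane anchor of complex II (63.8, 68.1, 67.8 and 68.0 CPM in PBS, 63.0, 62.9, 63.0 and 60.5 in LPS, -0.10 ± 0.04, adjusted p = 0.147), and to Uqcr11, a small subunit of complex III (55.8 ± 2.64 CPM in PBS, 49.3 ± 1.198 in LPS, SD, n = 4, -0.18 ± 0.06, edgeR adjusted p = 0.0865). The groups did not overlap for either gene.

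The other subunits of complex II lay close to 0: Sdha -0.07 ± 0.04, the iron-sulfur protein Sdhb 0.00 ± 0.05, and Sdhd, the second anchor, -0.04 ± 0.04. The 6 restricted isoforms tested all had log2 fold changes below 0 (median -0.533), and none passed. Cox7a1, the muscle form, was at 0.792 ± 0.105 CPM in PBS and 0.435 ± 0.149 CPM in LPS (SD, n = 4; -0.86 ± 0.32, edgeR adjusted p = 0.111). With Cox7b2 included, the mean score of the isoforms relative to wild-type PBS was -0.507 ± 0.225 in wild-type LPS (SD). It was -0.003 in knockout PBS and -0.044 in knockout LPS. Markers of pericytes and smooth muscle scored -0.337 ± 0.285 in wild-type LPS, -0.25 in knockout PBS and -0.308 in knockout LPS. The part of these markers in the isoform values was not tested. Of the 8 complex I assembly factors, 6 were below 0 (median -0.099) and none passed.

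The mitochondrial mRNAs had a median log2 fold change of 0.009 in wild type, 7 above 0 and 6 below 0, and none passed or had an unadjusted p below 0.05, against 24.4% of all genes. The largest in size were mt-Nd2, a complex I core subunit, at -0.15 ± 0.12 (adjusted p = 0.479), and mt-Co2 at 0.13 ± 0.12 (adjusted p = 0.547). mt-Atp6, the subunit that forms the proton channel of complex V, stood at 4740, 4531, 4968 and 4574 CPM in PBS and 4498, 4308, 4335 and 4333 CPM in LPS. These did not overlap, but the log2 fold change of -0.11 ± 0.09 missed the threshold (adjusted p = 0.519). With its nuclear copy added, mt-Atp6 stood at 0.10, -0.06, 0.02 and -0.07 in PBS and 0.06, 0.22, -0.04 and 0.07 in LPS on the log2 scale relative to wild-type PBS. The groups then overlapped and the log2 fold change was above 0 (0.08 ± 0.11, adjusted p = 0.721). With copies added, mt-Co2 was at 0.04, mt-Co3 at -0.02 instead of 0.04, and mt-Nd3 at -0.07 instead of 0.01. The share of all counts held by the 13 mitochondrial mRNAs was 5.46%, 5.04%, 5.42% and 5.004% in wild-type PBS and 4.96%, 5.45%, 5.19% and 5.34% in wild-type LPS, so the groups overlapped.

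A library score, the mean log2 CPM of the nuclear subunits relative to the wild-type PBS mean, shows the same per library. It was -0.02, 0.05, -0.03 and 0.00 in wild-type PBS and -0.07, -0.14, -0.09 and -0.09 in wild-type LPS. All LPS libraries lay below all PBS libraries. Wild-type PBS replicate 4 and LPS replicate 1, which share a title code, stood at 0.00 and -0.07, and knockout PBS replicate 4, which shares its code with wild-type LPS replicates 2 to 4, at -0.04 against their -0.14 to -0.09.

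Other genes moved in the same libraries. Neuron markers scored 0.01, -0.10, -0.12 and -0.15 in wild-type LPS replicates 1 to 4 (8 genes, none passed) against -0.01 to 0.02 in wild-type PBS. Their log2 fold changes were mixed, 5 below 0 and 3 above (-0.278 to 0.138). Oligodendrocyte markers scored -0.93, -0.27, -0.97 and -1.48, and 4 of 6 fell, among them Mog (-1.28). Astrocyte markers scored -0.05, 0.39, 0.33 and 0.38, but the list was mixed. Of its 6 log2 fold changes 4 were above 0 and 2 below (-0.331 to 1.682, median 0.116), and 2 genes rose. All 6 thalamic markers had log2 fold changes below 0 (median -1.688), and 2 fell. The part of these markers in the respiratory chain values was not tested. Nuclear subunit mRNAs are short (median longest transcript 1025.5 bases, against 3433 for all protein-coding genes tested). The 115 other mRNAs below 800 bases had a median log2 fold change of 0.01. They scored -0.13, -0.01, 0.01 and -0.01 in wild-type LPS replicates 1 to 4. Only 23 of the 76 nuclear subunits lie below that length, so the 2 sets are unlike. The part of transcript length was not tested.

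The 7 calls depend on which libraries enter. The count was 0 in a fit of the 2 wild-type groups alone, where no gene of any kind passed, 16 without wild-type LPS replicate 1, 2 without wild-type PBS replicate 2 or 3 or without wild-type LPS replicate 2 or 3, and 3 without wild-type LPS replicate 4. The share of all genes that passed is not given here for each library left out. These counts are therefore not read as a result about the members. Ndufc1 and Atp5g1 each passed in 27 of the 28 other settings tried.

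**Figure D3:**
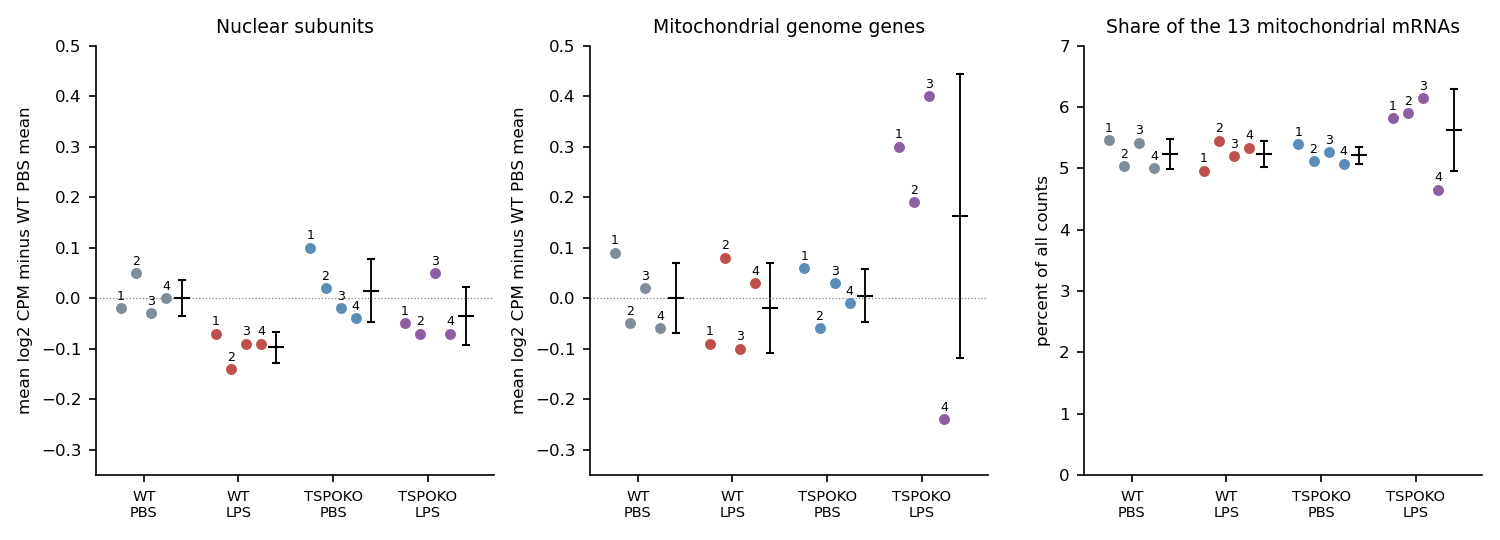
Mean log2 CPM of the nuclear subunits and of the 13 mitochondrial genes, set against the average of the wild-type PBS libraries, and the percent of counts from the 13 mitochondrial genes, for each library (points, numbered by replicate, with group mean and SD). Wild-type LPS libraries lie between -0.14 and -0.07 in the nuclear score, and knockout LPS replicate 4 lies at -0.24 in the mitochondrial score while the other 3 of its group lie between 0.19 and 0.40.

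In the knockout, LPS against PBS gave no call. Of 104 members 0 passed with edgeR (0% of all 16269 genes passed in either direction), 4 had an unadjusted p below 0.05 against 6.88% of all genes, and DESeq2 and limma-voom also called 0. The 75 nuclear subunits had a median log2 fold change of -0.037, with 61 below 0, against -0.013 over all genes. Other short mRNAs lay lower still, 115 mRNAs below 800 bases at a median of -0.062 (91 below 0) and 82 genes of a cytosolic ribosome list at -0.054 (74 below 0). The library scores of the nuclear subunits were 0.10, 0.02, -0.02 and -0.04 under PBS and -0.05, -0.07, 0.05 and -0.07 under LPS, and overlapped. By complex the nuclear medians were -0.038 (I), -0.033 (II), -0.058 (III), 0.005 (IV) and -0.042 (V). The subunits with the smallest p in each were Ndufa8 (-0.10 ± 0.05), Sdhd (-0.10 ± 0.04), Uqcr10 (-0.12 ± 0.07), Cox5b (-0.05 ± 0.06) and Atp5g1 (-0.10). In Atp5s every knockout LPS library (13.3, 13.3, 14.1 and 12.6 CPM) lay above every knockout PBS library (12.3, 12.4, 12.3 and 11.98 CPM). It was the single member of which this held, 0.962% of those tested against 3.04% of all genes. In 2 members every LPS library lay below every PBS library (1.92%, against 3.51% of all genes).

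The mitochondrial mRNAs had positive log2 fold changes in 12 of 13 genes in the knockout (median 0.145), but 1 library lay far from the other 3 of its group. Their library score was 0.06, -0.06, 0.03 and -0.01 under PBS and 0.30, 0.19, 0.40 and -0.24 under LPS. Replicates 1, 2 and 3 of knockout LPS were the highest 3 of the 16 libraries and replicate 4 the lowest. Their share of counts was 5.39%, 5.12%, 5.26% and 5.07% under PBS and 5.82%, 5.90%, 6.15% and 4.65% under LPS. With the counts of the nuclear copies added the scores of knockout LPS were 0.29, 0.19, 0.43 and -0.24. The gene below 0, mt-Co2 (-0.04), was then at 0.12, while mt-Atp6 was at 0.21 (0.20 as counted), mt-Co3 at 0.09 (0.10) and mt-Nd3 at 0.03 (0.06).

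mt-Nd6, the complex I subunit on the minus strand, had the smallest p of the mitochondrial genes in the knockout. It stood at 167, 129, 160 and 163 CPM under PBS and 258.5, 210, 266 and 125.5 CPM under LPS (0.48 ± 0.19, adjusted p = 0.703). mt-Atp8, the small accessory subunit of the proton channel part, stood at 347, 343, 359 and 332.5 CPM under PBS and 632, 337, 701 and 245 CPM under LPS (0.47 ± 0.25, adjusted p = 0.703). In both genes LPS replicates 1 and 3 were high and replicate 4 low, so the groups overlapped. mt-Co1 spanned 15553 to 16228 CPM under PBS and 15107 to 18712 CPM under LPS (0.12 ± 0.07, adjusted p = 0.714). Without knockout LPS replicate 4 the median over the 13 genes was 0.246, and still 0 members passed.

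**Figure D4:**
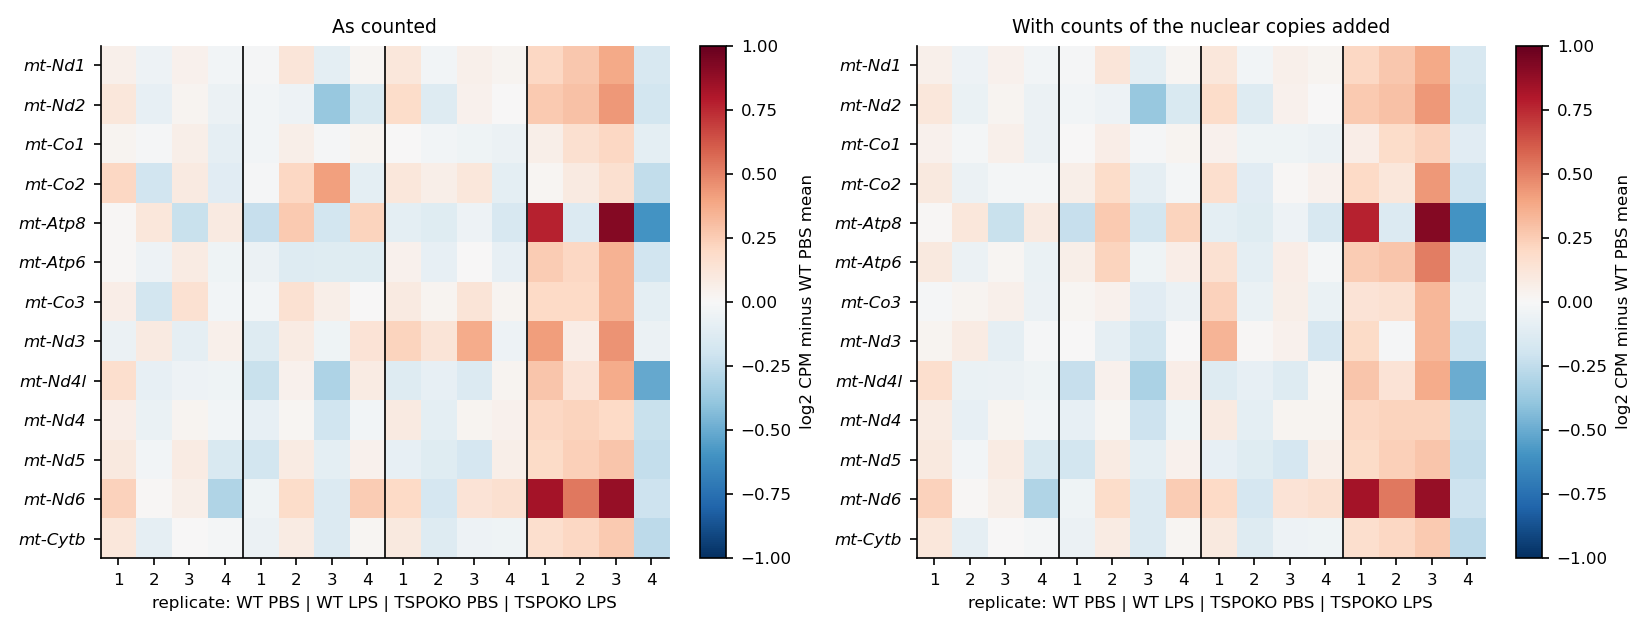
Log2 CPM (colour) of each of the 13 mitochondrial genes, set against the average of the wild-type PBS libraries, in each of the 16 libraries, as counted and with the counts of nuclear copies added. Knockout LPS replicates 1 to 3 are above the other groups in most genes and replicate 4 is below them, for mt-Nd1 at 0.21, 0.27, 0.38 and -0.16.

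Knockout and wild type under PBS were compared to ask whether the loss of an outer membrane protein of the mitochondrion changes the chain at rest. No member passed (0 of 104 with edgeR and with DESeq2, 1 with limma-voom), against 0.0307% of all genes higher and 0.00615% lower in the knockout (0.0369% in all). At an unadjusted p below 0.05 there was 1 member against 5.17% of all genes. It was Cox4i2, the isoform of complex IV linked to low oxygen, at 1.16, 1.30, 1.43 and 1.07 CPM in wild type and 0.878, 0.819, 0.560 and 0.604 CPM in the knockout, with no overlap (-0.78 ± 0.24, edgeR adjusted p = 0.919). Its wild-type LPS libraries, the lowest at 0.529 CPM, reached into both ranges. Vessel markers also had log2 fold changes below 0 in this comparison. Of 8 pericyte and smooth muscle markers, 7 were below 0 (median -0.277) and 3 had an unadjusted p below 0.05, and their score ran from -0.346 to -0.124 in knockout PBS and from -0.174 to 0.290 in wild-type PBS. All 5 endothelial markers were below 0 (median -0.345). None of these markers passed, and their part in the value of Cox4i2 was not tested.

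No overlap between the groups was seen in that 1 member (lower, 0.962% of members against 1.82% of all genes), and no member lay apart on the higher side, against 1.46% of all genes. The nuclear subunits had a median log2 fold change of 0.013 and the mitochondrial genes of 0.016, against 0.005 over all genes. The smallest p-values per complex were those of Ndufs7 (0.07 ± 0.05), Sdhc (0.06 ± 0.04), Uqcrb (0.07 ± 0.07), Cox8a (0.06 ± 0.06) and Atp5f1 (0.06 ± 0.04), all with an adjusted p of 0.919 or above. The library labelled knockout PBS replicate 1 had the highest nuclear score of the 16 (0.10), and its scores of short mRNAs (0.11) and of the cytosolic ribosome list (0.13) were also high. Without it, 0 members passed. Given the spread between libraries, differences of this size were not detectable.

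Under LPS, knockout against wild type shares the wild-type LPS libraries with the first comparison, so the 2 are given side by side, not as separate support. Of 104 members, 5 were higher in the knockout and 0 lower. They were Atp5s, Ndufb2, Ndufc1, Atp5g1 and Cox5a. That is 4.81% of the members, near the 4.61% of all genes that were higher, while 7.28% of all genes were lower (11.9% in either direction). In 13 members (12.5%) every knockout library lay above every wild-type library, against 7.35% of all genes, and in 1 every one lay below, against 6.98%.

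Atp5s showed the largest margin relative to its error, 13.3 ± 0.59 CPM in knockout LPS and 10.4 ± 0.40 in wild-type LPS (SD, n = 4), a log2 fold change of 0.36 ± 0.06 (edgeR adjusted p = 0.0036). The 4 knockout values, 12.64 to 14.1 CPM, were apart from the 4 wild-type values, 10.04 to 10.96 CPM, and also above those of both PBS groups, the highest of which was 12.55 CPM. Ndufb2 differed by 0.33 ± 0.09 (adjusted p = 0.0251), Ndufc1 by 0.25 ± 0.07 (adjusted p = 0.0342), Cox5a by 0.23 ± 0.07 (adjusted p = 0.0377) and Atp5g1 by 0.15 ± 0.04 (adjusted p = 0.0358). In Ndufc1 and Atp5g1 the groups did not overlap, and in Ndufb2 and Cox5a wild-type LPS replicate 1 lay at the edge of the knockout range. Ndufab1 (0.13, adjusted p = 0.055) narrowly did not pass although its libraries were apart, and neither did Sdhc (0.11 ± 0.04, adjusted p = 0.0977), Cox7a2 (0.19 ± 0.06, adjusted p = 0.0647) or Uqcrh, the hinge protein of complex III (0.14 ± 0.06, adjusted p = 0.16).

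The nuclear subunits had a median of 0.066, with 63 of 75 above 0, and by complex 0.038 (I), 0.028 (II), 0.076 (III), 0.088 (IV) and 0.082 (V), against -0.002 over all genes. The mitochondrial genes had a median of 0.184, with 12 of 13 above 0 and 0 that passed, and by complex 0.202 (I), 0.134 (III), 0.072 (IV) and 0.302 (V). mt-Nd2 came nearest, at 3072, 3044, 2414 and 2838 CPM in wild-type LPS and 3773, 3840, 4238 and 2781 CPM in knockout LPS (0.36 ± 0.12, adjusted p = 0.0533). Only replicate 4 of the knockout group lay within the wild-type range. mt-Atp6 was at 0.27 ± 0.09 (adjusted p = 0.0634), and with its nuclear copy added at 0.16 ± 0.11 (adjusted p = 0.359). mt-Nd6 was at 0.49 ± 0.19 (adjusted p = 0.0961). mt-Co2 was the one gene below 0 (-0.13 ± 0.12, adjusted p = 0.514), and with its nuclear copy added it was above 0 (0.12, adjusted p = 0.509). mt-Nd3 stood at 0.22 as counted and 0.16 with its copy, and mt-Co3 at 0.12 and 0.16.

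The number of mitochondrial genes that passed was 0 as reported and changed with the settings. The share of all genes that passed is not given here for these settings. The counts are therefore not read as a result about the members. mt-Nd2 passed in 7 of the 28 other settings and mt-Atp6 in 3. Without knockout LPS replicate 4, and with copies not added, 7 members passed, 6 of them mitochondrial: mt-Atp6 (0.37, adjusted p = 0.0113), mt-Nd6 (0.68, adjusted p = 0.0134), mt-Nd2 (0.47, adjusted p = 0.0136), mt-Nd4 (0.27, adjusted p = 0.0299), mt-Nd1 (0.27, adjusted p = 0.0303) and mt-Nd4l (0.36, adjusted p = 0.0411). Knockout LPS replicate 4 had the lowest mitochondrial score of all libraries (-0.24), so leaving it out raises these values by construction. DESeq2 called 11 members, 2 of them mitochondrial. Without wild-type LPS replicate 1 the count was 15, without any 1 of wild-type LPS replicates 2, 3 and 4 it was 1, and without knockout LPS replicates 1, 2 and 3 in turn it was 3, 2 and 2. Atp5s passed in each of the 28 other settings, with a log2 fold change between 0.33 and 0.39.

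**Figure D5:**
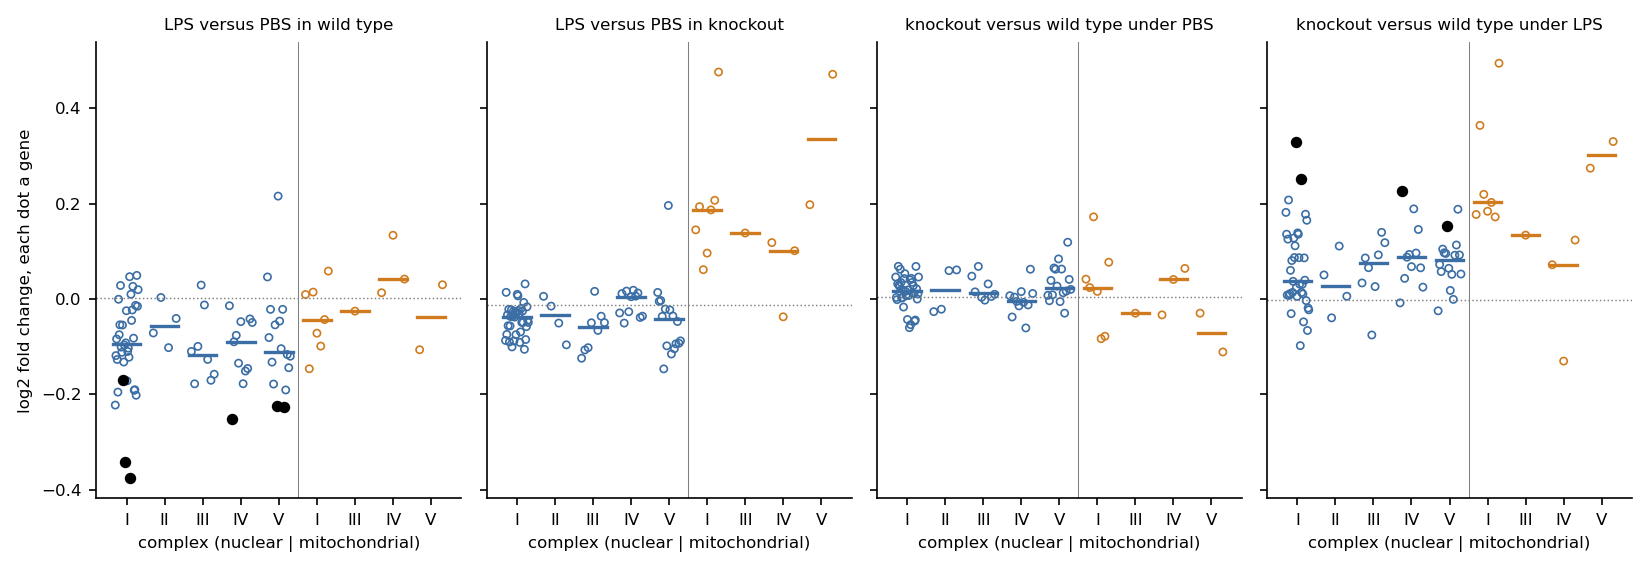
Log2 fold change of each tested subunit (assembly factors, restricted isoforms, Cox7a2l and Atp5s are not drawn) in the 4 pairwise comparisons, by complex, with nuclear genes in blue and mitochondrial genes in orange. Black points passed at an adjusted p below 0.05, bars are medians and the dotted line is the median of all genes. In wild type the nuclear medians are all below 0 (-0.119 to -0.056), and under LPS the knockout medians are all above 0.

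Neuron markers moved with this comparison too. Their scores were -0.03, 0.10, 0.16 and 0.08 in knockout LPS, and 3 of 8 were higher in the knockout, Gad1 (0.29), Nefl (0.33) and Gad2 (0.42). Of 6 oligodendrocyte markers, 4 were higher. Their part in the respiratory chain values was not tested.

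The interaction asks whether the effect of LPS differed between genotypes. With edgeR 0 of 104 members passed, against 0.553% of all genes above 0 and 0.596% below (1.15% in all), and 9 had an unadjusted p below 0.05 against 21.6% of all genes. DESeq2 called 1 and limma-voom 10. Atp5s came nearest (0.34 ± 0.09, adjusted p = 0.059), then Ndufc1 (0.31, adjusted p = 0.106), Cox5a (0.26, adjusted p = 0.124) and Ndufb2 (0.31, adjusted p = 0.158). Medians were 0.044 for the nuclear subunits and 0.168 for the mitochondrial genes, against -0.01 over all genes. Over the other settings they ranged from 0.007 (without knockout LPS replicate 3) to 0.091 and from 0.103 to 0.264. The falls in wild type are therefore not shown to differ from the effect in the knockout. Without wild-type LPS replicate 1 the count was 7, and without wild-type PBS replicate 4 it was 1. For DESeq2, limma-voom and these other settings the share of all genes that passed is not given. Their counts are therefore not read as a result about the members.

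The genes that build and run the chain were read from companion lists that exclude the members. The shares of each list are to be read against all genes, of which 4.72% rose and 3.85% fell in wild type under LPS, while between genotypes under LPS 4.61% were higher in the knockout and 7.28% lower. Among 37 assembly factors, 2 fell in wild type under LPS, Cox20, which chaperones mt-Co2 (-0.39), and Coa5 of complex IV assembly (-0.18), and 0 rose (median -0.07). Those 2 are 5.41% of the list. Under LPS both were higher in the knockout (0.44 and 0.27), as were Coa7 (0.26) and the complex II factor Sdhaf3 (0.35). The complex I factor Foxred1 (-0.36) and Cox19 (-0.29) were lower. Among 21 genes that copy, transcribe and process the mitochondrial genome, Ssbp1, which binds single-stranded mitochondrial DNA (0.36), and the DNA polymerase Polg (0.18) rose in wild type, while Lrpprc, which binds mitochondrial mRNAs, fell (-0.18), 9.52% and 4.76% of the list. In the knockout under LPS, Tfb1m (0.50) and Lrpprc (0.14) were higher than in wild type and Ssbp1 (-0.34) and Polg (-0.17) lower.

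The mitochondrial ribosome list held 78 genes chosen by symbols starting Mrpl or Mrps. Of these, Mrpl45 (0.21) rose and Mrps14 (-0.23) fell in wild type (median -0.033), 1.28% of the list each way and a smaller share than among all genes. Mrpl35 (0.28) and Mrps36 (0.25) were higher and Mrpl41 (-0.38) lower in the knockout under LPS. The 11 regulators of mitochondrial biogenesis had 0 calls with edgeR in both comparisons (medians -0.125 and 0.089). Of 13 genes of the citric acid cycle, 0 passed in wild type and Sucla2 (0.17) was higher in the knockout under LPS. Of 24 carriers and exchange proteins, cytochrome c (Cycs, 0.33) was higher in the knockout under LPS, and the uncoupling protein Ucp2 (-1.54), Coq8a (-0.43) and Slc25a27 (-0.30) were lower. The cytosolic ribosome list, short mRNAs used for comparison, held 82 tested genes chosen by symbols starting Rpl or Rps and a number. Of these, 3 rose in wild type (Rpl18 0.24, Rpl3 0.22, Rpl7l1 0.16), which is 3.66%, a share below that of all genes. Their median was 0.108 in wild type, above 0 where that of the nuclear subunits was below. In the knockout under LPS 10 were lower than in wild type (12.2%, median -0.138). No gene of these lists passed within the knockout or between genotypes under PBS.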

How the data were processed

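RNA of 16 hippocampus libraries was read from 1 deposited table of estimated counts for each gene. Per the submitters' processing notes the authors used Salmon 1.9.0, MultiQC 1.13, DESeq2 and DESeq, with no role given for each. The build they used is not stated there. All values were whole numbers, and groups and replicate numbers came from the labels. Names and coordinates were taken from GENCODE M21 (GRCm38), in which 105 identifiers (0.0537% of counts) were absent. The members, gene lists and naming rule were chosen with earlier results of these data known. The rule named the mitochondrial mRNAs, the Sdh genes, paralogous subunits, members that passed, the smallest p and the highest level per complex, and up to 3 genes that passed per companion list.

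edgeR 4.0.16 (R 4.3.3) was used: filterByExpr kept 16269 genes (99.97% of counts; 3180 removed), TMM scaling, a quasi-likelihood model with a mean for each group over all 16 libraries (biological coefficient of variation 0.177), the F test, and Benjamini-Hochberg adjustment at 0.05. An SE is the log2 fold change divided by the root of F. Log2 CPM used a prior count of 2. Of the 106 members 104 were tested; Cox7b2 (0 to 9 counts) and a second Atp5o identifier (1 to 11 counts) were removed by the filter. A list is described by its counts and median, without a test. Nuclear copies were found by shared 31-base words. Alternatives were RLE scaling, library sizes from nuclear genes, DESeq2 1.42.0, limma-voom (limma 3.58.1), other filters, a replicate block, fits of the compared groups alone, and leaving out each library. Chosen after seeing the data were setting aside libraries at odds with their labels or with choroid plexus or cerebellar markers, summing wild-type PBS replicates 2 and 3, and adding nuclear copies. The fit was tested on simulated data. Replicates 2 and 3 of wild-type PBS differed least of all pairs (chi-square per gene 3.93, against 13.0 or more), still above sampling noise, and were kept apart. The reads carry no molecular identifiers.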

Additional observations from a re-analysis of the deposited data

Results flagged for a closer look

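Of 132 groups of 4 libraries examined over 33 measures of the respiratory chain, 11 held a library whose distance from the nearest other library exceeded 0.829 of the group's range, where chance gives about 1 in 20 (6.6). Of these, 10 are distinct, since the mitochondrial score for complex III is mt-Cytb alone. Knockout LPS replicate 4 accounted for 3 of the 10. Its complex III score was -0.26 while the other 3 libraries lay between 0.17 and 0.26. Its log2 CPM was 12.25 for mt-Nd4 (others 12.66 to 12.69), 11.5 for mt-Nd5 (others 11.92 to 12.01) and 12.2 for mt-Cytb (others 12.63 to 12.72).

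Wild-type LPS replicate 1 stood apart at a log2 CPM of 12.14 for mt-Atp6 (others 12.07 to 12.08) and 6.26 for Cox5a (others 6.02 to 6.04). Wild-type PBS replicate 2 stood apart at 4.55 for Ndufc1 (others 4.23 to 4.26) and at 0.07 in the nuclear score of complex IV (others -0.03 to -0.02). In wild-type PBS replicate 3 the mitochondrial score of complex V was -0.07 (others 0.01 to 0.03). Knockout PBS replicate 2 had mt-Nd6 at 7.01 (others 7.32 to 7.38), and knockout PBS replicate 4 had Atp5s at 3.59 (others 3.63 to 3.64).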

How the results depend on the processing

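No gene that passed changed direction in any setting. Group medians near 0 did: the mitochondrial median in wild type in 7 of 28 settings, and between genotypes under PBS the mitochondrial median in 4 (-0.032 to 0.073) and the nuclear one in 3 (-0.013 to 0.038). For LPS against PBS in wild type the 7 calls became 30 with limma-voom (28.8% of all genes passed), 0 in a fit of the compared groups alone, 22 without wild-type LPS replicate 1 and knockout PBS replicate 1 (19.9% of all genes), 13 without wild-type PBS replicate 1, wild-type LPS replicate 1 and knockout PBS replicate 2 (19.5%), and 2 with wild-type PBS replicates 2 and 3 summed. Leaving out single libraries gave 2 to 16. For knockout against wild type under LPS the 5 calls became 11 with DESeq2 (17.1%), 11 with limma-voom (25%), 1 in the fit of the compared groups alone, and 16 and 12 with the same libraries set aside, with 1 to 15 on leaving out single libraries. For the interaction the 0 calls became 1 with DESeq2, 10 with limma-voom, and 9 and 4 with those libraries set aside, with 0 to 7 on leaving out single libraries. Knockout against wild type under PBS gave 1 call with limma-voom, and LPS in the knockout gave 0 in all 28 settings. Where the share of all genes is not printed beside a count, that count is not read as a result about the members. The cause of these changes was not tested. With the replicate number as a block, 5, 0, 0 and 4 members passed in the 4 pairwise comparisons (in the order of the report) and 0 in the interaction. Same-numbered libraries were not paired by it (correlations -0.23 to 0.36 over 24 pairs, and 4 of 16 libraries best matched by their own number). The nuclear median in wild type ranged from -0.12 to -0.072 and the mitochondrial one from -0.053 to 0.043, and in the knockout from -0.066 to -0.014 and from 0.086 to 0.246. Under LPS between genotypes they ranged from 0.032 to 0.091 and from 0.108 to 0.275. Adding nuclear copies moved the mitochondrial share of counts to 5.78% (wild-type PBS), 5.83% (wild-type LPS), 5.78% (knockout PBS) and 6.30% (knockout LPS). With the longest transcript as length, levels were 385 for Ndufb9, 358 for Sdha, 354.5 for Uqcr10, 1199 for Cox8a and 767 for Atp5a1, and Cox4i1 (1207) and Atp5b (1422) were then the highest in complexes IV and V. The 7 genes that passed in wild type held 350 to 4665 counts per library, while Cox8b, a scarce isoform, stood at 0.0305 CPM in 1 library. The part of depth in the calls was not tested.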
